A study of Mus musculus with 8 samples.

Results

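The transcription factors that set regional identity along the gut were examined in tuft cells sorted from mice given scopolamine and from sham mice. They comprised 9 genes, Gata4, Gata5, Gata6, Cdx1, Cdx2, Pdx1, Onecut2, Nkx6-3 and Sox2, taken by symbol from the 35199 genes listed. All cells came from Dclk1-DTR-ZSgreen mice, in which a bacterial artificial chromosome carrying Dclk1 drives the diphtheria toxin receptor and the ZSgreen reporter. The mice were made on a CBA × C57BL/6J background and backcrossed to C57BL/6J, and reporter signal in such a line follows the transgene, not the endogenous gene. One group of 4 mice (replicates 1 to 4) received scopolamine, a nonselective muscarinic receptor antagonist, at 0.5 mg per kg body weight per day by osmotic pump for 7 days. The other 4 (replicates 5 to 8) received sodium chloride for the same time (sham). Pumps were implanted at 8 to 10 weeks of age, the study used both sexes, and its analyses were made in the jejunum. Each library came from 3000 or 4000 live, EPC-high ZSgreen-positive cells of 1 mouse.

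Cells of the intestinal epithelium keep a memory of their position along the gut, which is held by a few transcription factors. GATA4 marks the duodenum and jejunum, where it activates jejunal genes and keeps ileal genes silent, and GATA6 is present along the whole small intestine. The homeodomain factors CDX1 and CDX2 separate intestine from stomach, PDX1 acts in the pancreas, antrum and proximal duodenum, and SOX2 defines the foregut and stomach. NKX6-3 is a homeodomain factor of antral and duodenal epithelium that is needed for gastrin cells. Tuft cells are rare chemosensory cells found in all of these regions.

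Promoter sequences are shown for the members whose entries were in the RefSeq table (GRCm38.p6, 250 bases before to 50 after the start), which were 4 of the 9, because they differ in base composition while the genes differ widely in level. Capitals mark the matches to the motifs that were searched on both strands, namely GATAA or GATAG for GATA factors, TTTAT for CDX factors, the octamer ATTTGCAT bound by POU family factors and the TATA box TATAAA. Cdx2 (chr5:147307200-147307499, minus strand) and Pdx1 (chr5:147269847-147270146, plus strand) are neighbours in the ParaHox cluster.
Cdx2: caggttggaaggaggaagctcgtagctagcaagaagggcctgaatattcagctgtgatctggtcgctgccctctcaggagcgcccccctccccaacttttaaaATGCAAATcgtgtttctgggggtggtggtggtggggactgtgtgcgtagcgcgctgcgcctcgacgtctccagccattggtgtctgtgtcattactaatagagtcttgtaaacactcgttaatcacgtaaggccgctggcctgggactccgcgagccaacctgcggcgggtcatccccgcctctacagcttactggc
Pdx1: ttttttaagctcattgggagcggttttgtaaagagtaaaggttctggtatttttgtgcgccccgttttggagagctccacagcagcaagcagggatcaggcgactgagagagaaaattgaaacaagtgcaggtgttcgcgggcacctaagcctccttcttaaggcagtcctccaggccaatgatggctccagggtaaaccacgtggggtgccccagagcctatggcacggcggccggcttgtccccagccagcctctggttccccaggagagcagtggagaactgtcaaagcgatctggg
Gata5 (chr2:180334630-180334929, minus strand): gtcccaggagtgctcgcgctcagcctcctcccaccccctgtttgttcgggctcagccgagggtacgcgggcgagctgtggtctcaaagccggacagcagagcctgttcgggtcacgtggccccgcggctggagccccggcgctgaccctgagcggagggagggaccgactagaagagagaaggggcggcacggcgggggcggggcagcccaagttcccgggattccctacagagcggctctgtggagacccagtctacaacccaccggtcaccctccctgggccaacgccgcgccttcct
Sox2 (chr3:34649745-34650044, plus strand): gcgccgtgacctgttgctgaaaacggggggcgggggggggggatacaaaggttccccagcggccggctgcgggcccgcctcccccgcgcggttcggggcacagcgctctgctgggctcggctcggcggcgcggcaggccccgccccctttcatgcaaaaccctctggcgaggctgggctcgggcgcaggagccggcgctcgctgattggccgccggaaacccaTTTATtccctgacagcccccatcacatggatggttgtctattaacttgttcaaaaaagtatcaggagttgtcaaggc
The Cdx2 window held 1 octamer, which 1.74% of 32851 promoters of this length held, and the Sox2 window held 1 TTTAT, which 40.0% held. None of the 4 windows held the GATA letters, found in 41.6% of promoters, or the TATA box, found in 13.6%. CG dinucleotides numbered 27 for Sox2 and 26 for Gata5, against 18 for Cdx2 and 11 for Pdx1 and a median of 7 over all promoters. These matches describe letters in the window and say nothing of binding.

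The total estimated count was lower in every scopolamine library (14343362 to 20857433) than in any sham library (25769940 to 41428916), and an effect of depth cannot be told apart from one of treatment. Sham replicates 5 and 7 were amplified from 200 pg of RNA with 15 cycles and the other 6 libraries from 1000 pg with 10 cycles. The mouse IDs of scopolamine replicates 1, 2 and 3 and sham replicate 5 begin with M and those of the other 4 with N. All 10 tuft cell markers were detected in every library, with a summed level of 12315 to 21315 CPM (counts scaled to the TMM-adjusted library total) with scopolamine and 15021 to 17921 CPM in sham. Markers of other cells were present too, and fewer cells of a type cannot be told apart from less RNA per cell. The 10 enterocyte markers summed to 3241 to 6897 CPM with scopolamine and 2547 to 6635 CPM in sham, where replicate 5 was the highest and the others did not exceed 2641 CPM. The 14 enteroendocrine markers summed to 467 to 1109 CPM and 178 to 1503 CPM, with sham replicate 7 the highest of all, and the 11 goblet and Paneth markers to 722 to 3597 CPM and 371 to 1433 CPM. Scopolamine replicate 4, which also had the highest Gata4, Cdx2, Pdx1 and Nkx6-3 and the lowest Cdx1, stood apart for Paneth cell genes. It had 10307 counts of the lysozyme gene Lyz1 against at most 1899 in any other library and 8788 counts of the lectin gene Itln1 against at most 1645. The part of these markers in the results below was not tested.

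Of the 9 factors, 8 had a count, 7 passed the expression filter that requires a gene to be expressed in at least 4 libraries, and Sox2 had no count in any library. None of the 7 reached an adjusted p (Benjamini-Hochberg) under 0.1 in edgeR's quasi-likelihood test of scopolamine against sham, and neither did any of the 12849 genes tested, that is 0 genes or 0%. At an unadjusted p under 0.05, 0 of the 7 factors past the filter were found, against 770 genes or 5.99% of those tested, 3.33% higher with scopolamine and 2.66% lower. With DESeq2, the tool the study used, 1 factor (Nkx6-3) had an adjusted p under 0.1, where 1.35% of the genes with an adjusted p did, 1.01% higher and 0.342% lower. The median log2 fold change of the 7 factors was 0.27, beside -0.011 over all genes tested, and 6 were positive, where 49.1% of genes were. None of the 7 was separated between the groups, where 3.88% of genes had groups that did not overlap, 1.92% higher and 1.96% lower.

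**Figure D1:**
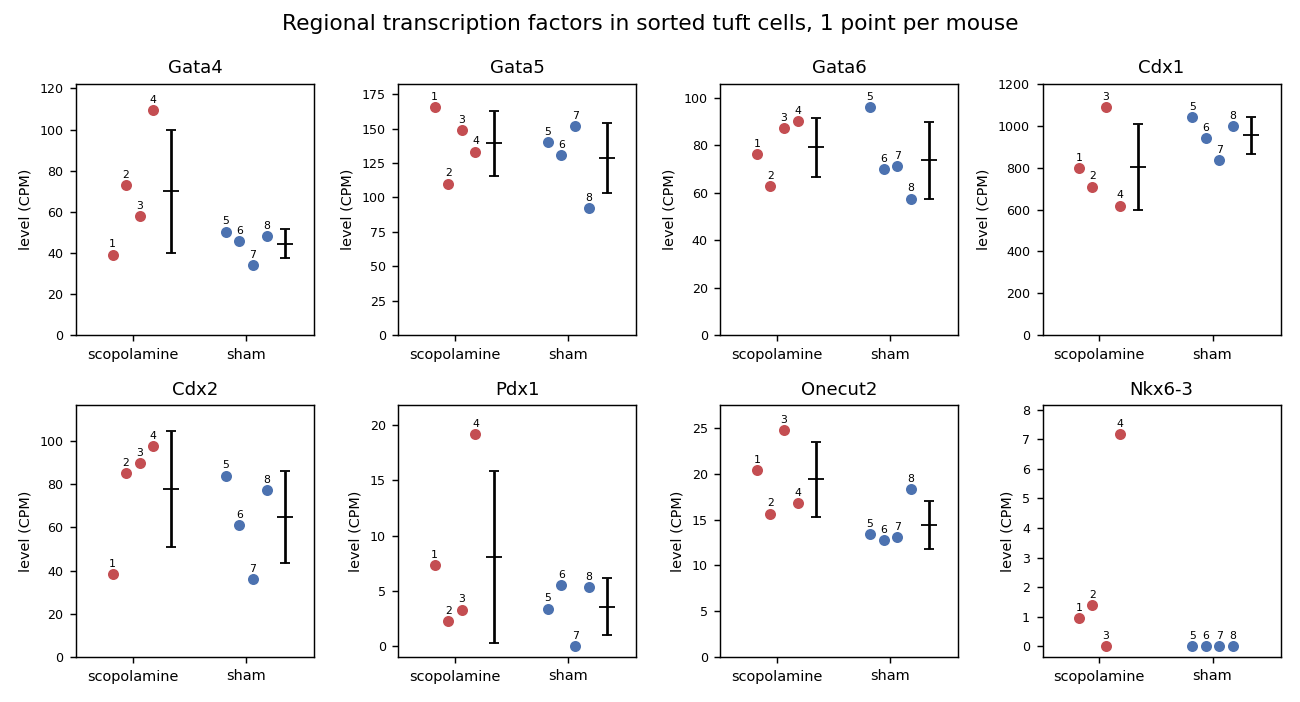
Level in CPM (vertical axes, linear) of the 8 factors with a count in the scopolamine and sham mice, 1 numbered point per mouse, with the group mean and SD as a black bar where the SD did not exceed the mean and the group was not at 0. The groups overlapped for all 8 factors, also for Nkx6-3, which was at 0 in the 4 sham mice and in scopolamine replicate 3, and scopolamine replicate 4 had the highest Gata4 (109.5 CPM), Pdx1 (19.2 CPM) and Nkx6-3 (7.18 CPM).

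Levels were compared between factors per kilobase of merged exons, since long transcripts collect more reads. Cdx1 stood at 503 CPM per kb over the 8 libraries, 12.3 times the next factor, Gata5, at 40.9 CPM per kb, and the ranges of these 2 did not overlap. Cdx1 lay above 99.5% of the 21647 genes with a count and a length. Cdx2 followed at 31.5 CPM per kb, below Gata5 in 5 of 8 libraries, so the order of these neighbours was not fixed. Gata4 (14.7 CPM per kb) lay below Cdx2 in all 8 libraries, and its lead over Gata6 (11.7 CPM per kb) held in 5 of 8. Pdx1 had 2.69 CPM per kb, Onecut2 1.04 and Nkx6-3 0.533, with overlapping ranges. The places of Gata4 and Gata6 depended on the gene model. With the median length of their protein-coding transcripts, 1545 and 852 bp, in place of merged exons of 3904 and 6508 bp, they stood at 37.0 and 89.6 CPM per kb, and Gata6 came second after Cdx1. The 852 bp is the median of 3 annotated Gata6 transcripts, and whether these are complete was not checked.

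**Figure D2:**
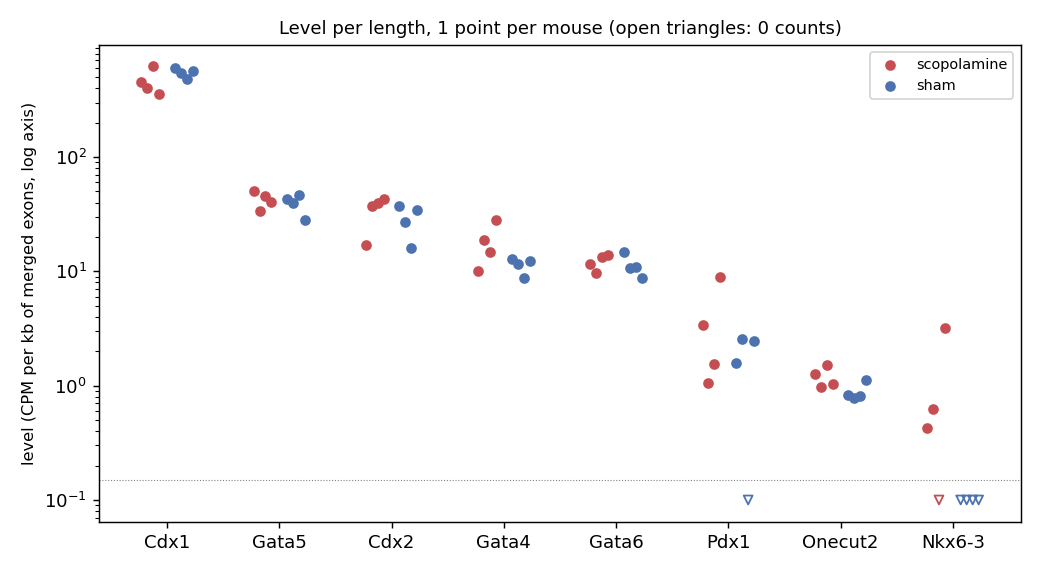
Level per length (CPM per kb of merged exons, log axis) of each factor in the 4 scopolamine (red) and 4 sham (blue) mice, with open triangles below the dotted line for libraries with 0 counts. Cdx1 was above all the others in every library, and Nkx6-3 had a count in 3 scopolamine mice.

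Gata4 (chromosome 14 from 63198922 to 63271692 of GRCm38) encodes the zinc finger factor of proximal small intestine. Its level was 39.2, 72.9, 58.1 and 109.5 CPM in scopolamine replicates 1 to 4 and 50.3, 45.7, 34.1 and 48.0 CPM in sham replicates 5 to 8. Scopolamine replicates 2, 3 and 4 lay above every sham mouse, and replicate 1 lay below all but sham replicate 7. The means were 69.9 ± 29.8 CPM (SD, n = 4) and 44.5 ± 7.20 CPM (SD, n = 4), a log2 fold change of 0.65 ± 0.29 (SE, edgeR adjusted p = 0.812). On log2 CPM, p was 0.171 in the exact permutation test (two-sided), where 4 against 4 cannot go below 0.0286. The edgeR unadjusted p was 0.0502. Without scopolamine replicate 4 the log2 fold change was 0.34 (edgeR unadjusted p = 0.228). It was 0.85 without scopolamine replicate 1 (edgeR unadjusted p = 0.00928, edgeR adjusted p = 0.541). Within mouse ID letters, the log2 ratio of mean levels was 0.17 among M mice, with 1 sham mouse, and 1.36 among N mice, with 1 scopolamine mouse.

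Gata5 (chromosome 2 from 180325133 to 180334699), a related zinc finger factor, had 165, 110, 149 and 133 CPM in scopolamine replicates 1 to 4 and 140, 131, 152 and 92.2 CPM in sham replicates 5 to 8. These ranges overlapped, with scopolamine replicate 1 the highest of the 8 and sham replicate 8 the lowest. The means were 139 ± 23.6 CPM (SD, n = 4) and 129 ± 25.7 CPM (SD, n = 4), with a log2 fold change of 0.12 ± 0.19 (SE, edgeR adjusted p = 0.949). Gata6 (chromosome 18 from 11052064 to 11085635), the GATA factor found along the whole small intestine, had 76.2, 62.7, 87.0 and 90.2 CPM with scopolamine and 96.1, 69.7, 71.2 and 57.4 CPM in sham. Here the highest value of all was in sham replicate 5. Its log2 fold change was 0.10 ± 0.20 (SE, edgeR adjusted p = 0.965), and its log2 ratio was -0.35 among M mice and 0.45 among N mice. Leaving out sham replicate 8, which had the lowest level of both genes in sham, brought the log2 fold changes to -0.014 for Gata5 and -2.2e-04 for Gata6.

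Among the GATA factors, Gata5 made up 58.8% ± 9.01 (SD, n = 4 mice) of the summed level per kb under scopolamine and 63.0% ± 5.54 in sham. Gata4 made up 24.6% ± 9.19 (SD, n = 4) and 18.8% ± 4.80 (SD, n = 4), with 13.2% in sham replicate 7, the lowest of the 8, and the highest share in scopolamine replicate 4. Gata6 made up 16.7% ± 1.09 (SD, n = 4) and 18.2% ± 1.95 (SD, n = 4). No share differed between the groups beyond the spread of the mice (exact permutation test, two-sided, p = 0.257 for Gata4, 0.429 for Gata5 and 0.229 for Gata6). The leading share depended on the length used. For Gata6 this was 6508 bp of merged exons or 852 bp, a median of 3 coding transcripts not checked for completeness. With the median length of coding transcripts Gata6 led, at 51.4% ± 3.77 under scopolamine and 55.6% ± 3.02 in sham, ahead of Gata5 at 23.9% ± 5.04 and 25.4% ± 3.82 (SD, n = 4 each), with no difference beyond the spread of the mice (exact permutation test, two-sided, p = 0.257 for Gata6 and 0.629 for Gata5).

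Cdx1 (chromosome 18 from 61018862 to 61036199) encodes a caudal-type homeodomain factor of intestinal epithelium and was the most abundant factor of the 9. Its level was 797, 710, 1089 and 619 CPM in scopolamine replicates 1 to 4 and 1042, 944, 838 and 1001 CPM in sham replicates 5 to 8. Scopolamine replicates 1, 2 and 4 were below every sham mouse, while replicate 3 was the highest of the 8. The means were 804 ± 203 CPM (SD, n = 4) and 956 ± 88.3 CPM (SD, n = 4), a log2 fold change of -0.25 ± 0.18 (SE, edgeR adjusted p = 0.859, exact permutation test p = 0.200, two-sided). Single libraries moved this value, to -0.43 without scopolamine replicate 3 (edgeR adjusted p = 0.891) and -0.15 without scopolamine replicate 4. Cdx1 was the only one of the 7 factors past the filter with a negative log2 fold change, where 50.9% of the genes tested had one.

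Cdx2 (chromosome 5 from 147300805 to 147307270), the caudal-type factor without which intestinal epithelium takes on foregut features, had 38.4, 85.1, 89.7 and 97.7 CPM with scopolamine and 83.9, 61.0, 36.1 and 77.4 CPM in sham. Scopolamine replicate 1 and sham replicate 7 were both low, and the other 3 scopolamine mice lay above all sham mice. The log2 fold change was 0.27 ± 0.33 (SE, edgeR adjusted p = 0.919). It was 0.068 without sham replicate 7, 0.12 without scopolamine replicate 4 and 0.49 without scopolamine replicate 1. Its log2 ratio was -0.24 among M mice and 0.75 among N mice. Per kb, Cdx1 exceeded Cdx2 in every library, from 8.19 times in scopolamine replicate 4 to 30.0 times in sham replicate 7. The log2 ratio of Cdx1 over Cdx2 was 3.79 ± 0.74 under scopolamine and 4.32 ± 0.41 in sham (SD, n = 4 each), a difference of -0.53 that was within the spread of the mice (exact permutation test, two-sided, p = 0.229, adjusted p = 0.450 over 7 ratios between factors). Single libraries moved it both ways, to -0.85 without scopolamine replicate 1 (exact permutation test p = 0.0286, two-sided), to -0.28 without scopolamine replicate 4 and to -0.33 without sham replicate 7 (exact permutation test p = 0.457, two-sided, for each of the latter).

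**Figure D3:**
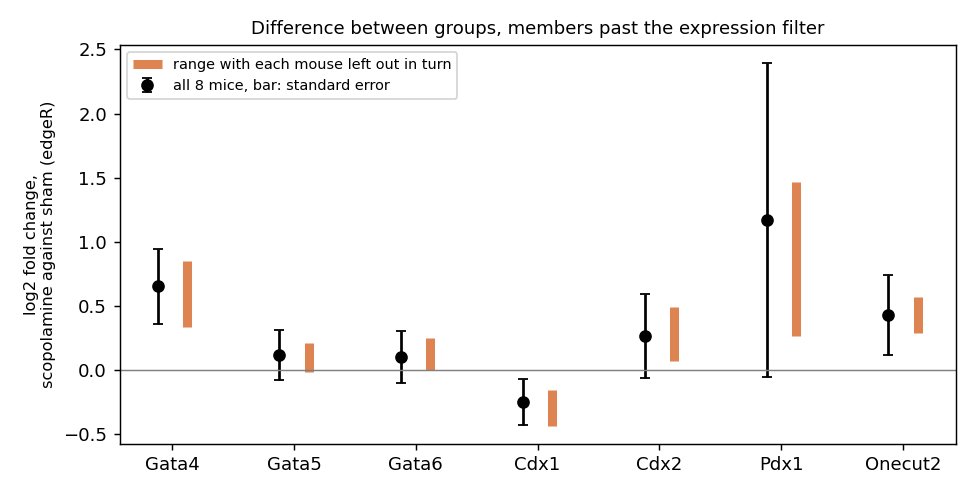
Log2 fold change of scopolamine against sham (vertical axis) for the 7 factors past the expression filter, as points with the standard error over all 8 mice and as orange bars for the range over fits that omitted 1 mouse each. Pdx1 had the widest standard error (1.22) and Cdx1 was the factor below 0.

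Ratios within a library do not depend on how libraries are scaled. The log2 ratio of Gata4 over Cdx1, each per kb, was -5.50, -4.44, -5.39 and -3.66 in scopolamine replicates 1 to 4 and -5.53, -5.53, -5.78 and -5.54 in sham replicates 5 to 8. The groups did not overlap, although scopolamine replicate 1 cleared the highest sham mouse narrowly. The difference of the means was 0.85, or 1.80-fold (exact permutation test, two-sided, p = 0.0286, the smallest possible), with an adjusted p of 0.200 over the 7 ratios, which were chosen after the counts had been seen. It was 0.48 without scopolamine replicate 4, and without the sham libraries made from 200 pg it was 0.78 (exact permutation test p = 0.133, two-sided). With 4 against 2 mice the exact permutation p cannot go below 0.0667, so this value cannot show a dependence on those libraries. Without any 1 sham mouse, p was 0.143 to 0.171. The ratio of Gata5 over Gata6 was alike in the groups, with a log2 value of 1.81 ± 0.23 under scopolamine and 1.80 ± 0.24 in sham (SD, n = 4 each). With the median length of coding transcripts the sign turned, to -1.13 and -1.14, and the difference between the groups, 0.012, is the same by construction.

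**Figure D4:**
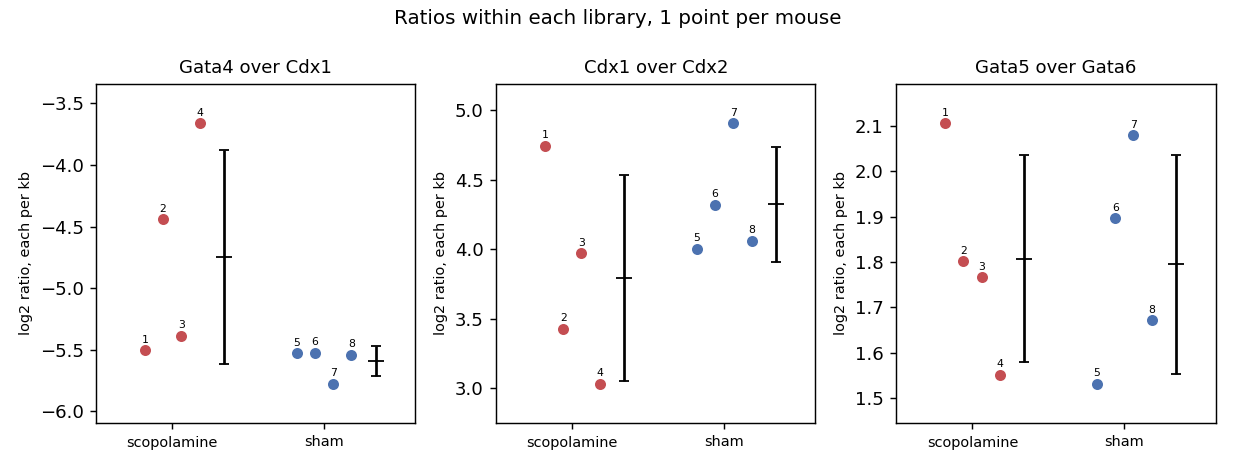
Log2 ratios between factors within each library, each per kb of merged exons (vertical axes), 1 numbered point per mouse, with the group mean and SD as a black bar. For Gata4 over Cdx1 all 4 scopolamine mice lay above the 4 sham mice, and for the other 2 ratios the groups overlapped.

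Pdx1 (chromosome 5 from 147269959 to 147275848), which encodes a homeodomain factor of pancreas, antrum and duodenum, lies 24957 bp from Cdx2 in the annotation. Its counts were 147, 49, 47 and 406 in scopolamine replicates 1 to 4 and 90, 228, 0 and 179 in sham replicates 5 to 8, or 7.36, 2.29, 3.32 and 19.2 CPM against 3.41, 5.54, 0 and 5.34 CPM. Scopolamine replicate 4 was the highest, scopolamine replicates 2 and 3 were below the sham mice with a count, and sham replicate 7, made from 200 pg, had none. The log2 fold change was 1.17 ± 1.22 (SE, edgeR adjusted p = 0.903). Its size rested on single libraries, being 0.26 without scopolamine replicate 4, 0.54 without the sham libraries made from 200 pg, and -0.35 with all 3 left out. The antisense gene Plut overlaps Pdx1 and the antisense gene Gata5os overlaps Gata5. On the strand opposite Gata6 lies 1010001N08Rik, a processed transcript that overlaps it. Reads could be shared in each case, since use of strand is not given for the counting. Gsx1, the remaining ParaHox gene of this cluster, had 0 counts in all 8 libraries.

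Onecut2 (chromosome 18 from 64340020 to 64400987), a cut-domain homeodomain factor of liver, pancreas and proximal intestine, had 20.4, 15.7, 24.8 and 16.8 CPM with scopolamine and 13.4, 12.8, 13.1 and 18.3 CPM in sham. All scopolamine mice were above sham replicates 5, 6 and 7, and sham replicate 8 lay among them. The means were 19.4 ± 4.13 CPM (SD, n = 4) and 14.4 ± 2.62 CPM (SD, n = 4), with a log2 fold change of 0.43 ± 0.31 (SE, edgeR adjusted p = 0.860, exact permutation test p = 0.0857, two-sided). With each mouse left out in turn the log2 fold change stayed between 0.29 and 0.57. Pdx1 and Onecut2 are both among leading-edge genes the study selected on these samples, so their direction is not independent evidence.

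Nkx6-3 (chromosome 8 from 23153269 to 23158948) was the factor with the most uneven counts. They were 19, 30, 0 and 152 with scopolamine, or 0.952, 1.40, 0 and 7.18 CPM, and 0 in all 4 sham mice. When every library was thinned to 14343362 counts, the scopolamine mice had 12, 26, 0 and 104 counts and the sham mice remained at 0. Against a floor of 3 counts per library, the scopolamine mean lay at least 27.2-fold higher, or at least 8.96-fold higher without scopolamine replicate 4. Floors cover counting error only, since amplified reads carry no molecular identifiers. The filter removed the gene, and without the filter its Benjamini-Hochberg adjusted p was 0.587 in edgeR and 0.0131 in DESeq2. The exact permutation test gave p = 0.143 (two-sided), as 1 scopolamine mouse was at 0 too. The study names Nkx6-3 among its leading genes from DESeq2 on these same mice, so the DESeq2 call is not independent evidence.

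The libraries with Nkx6-3 were compared with those holding other genes of the antrum and the endocrine lineage. Gast, the gastrin gene, had 14, 0, 3 and 1 counts with scopolamine and 18, 0, 0 and 13 in sham, which did not follow Nkx6-3. The enteroendocrine markers summed to 479, 973, 467 and 1109 CPM in scopolamine replicates 1 to 4 and to 273, 178, 1503 and 294 CPM in sham replicates 5 to 8. Sham replicate 7 thus had the highest endocrine marker level and no Nkx6-3, while the 2 scopolamine mice with the most Nkx6-3 came next in endocrine marker level. The related factors Nkx6-1 and Nkx6-2 had at most 17 and 39 counts in any library, both in sham replicate 6.

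Sox2 (chromosome 3 from 34650405 to 34652461), the factor of foregut and stomach, had 0 counts in each of the 8 libraries, where 3 counts correspond to 0.0729 to 0.212 CPM. Sox2 lies within the long noncoding gene Sox2ot on the same strand. Stomach genes were absent in part. Of 14, 7 had a count and 7 had none in any library, among the latter Atp4b and Tff1, Gkn1 and Muc5ac of gastric surface cells. The 3 past the filter were Anxa10 (10.5 ± 4.35 CPM with scopolamine and 10.4 ± 7.46 CPM in sham, SD, n = 4 each), Atp4a, a subunit of the gastric proton pump, at 7.47 ± 3.12 and 8.27 ± 4.08 CPM, and Cldn18, a stomach and lung claudin, at 8.08 ± 4.41 and 3.47 ± 2.33 CPM. None of the 14 had an adjusted p under 0.1 in edgeR, and the list summed to 14.8 to 38.0 CPM with scopolamine and 14.2 to 33.6 CPM in sham.

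Genes that mark the regions these factors specify were counted next, from lists of which the study had itself selected many members on these samples (16 of 20 proximal and 11 of 15 distal genes stand in its printed leading edges), so their direction is not independent evidence. Of 20 genes of the proximal small intestine, 19 passed the filter, and 18 had a positive and 1 a negative log2 fold change, with a median of 1.38 beside -0.011 over all genes. No gene had an adjusted p under 0.1 in edgeR, and 5 had an unadjusted p under 0.05, against 5.99% of all genes. With DESeq2, which called 1.35% of all genes, 1 did, Slc5a1, the sodium-glucose transporter SGLT1, with a log2 fold change of 2.51 in edgeR (DESeq2 adjusted p = 0.00459, edgeR adjusted p = 0.812). Among the most abundant were Fabp1, a fatty acid binding protein, at 3409 CPM with scopolamine and 3073 CPM in sham, and Mttp, which loads lipid onto apolipoprotein B, at 232 and 106 CPM.

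Of 15 distal genes, 12 passed the filter, and 11 had a positive and 1 a negative log2 fold change, with a median of 1.20. The most abundant were the aminopeptidase gene Enpep (78.2 CPM with scopolamine and 24.4 CPM in sham), the amino acid transporter gene Slc7a9 (50.04 and 23.4 CPM) and Amn, which anchors the cobalamin receptor (45.4 and 22.3 CPM). None passed an adjusted p of 0.1 in edgeR, 4 had an unadjusted p under 0.05, and 1 was called in DESeq2, with the same shares of all genes as above. That gene, Vnn1, a pantetheinase, had 0, 221, 61 and 92 counts with scopolamine and 1, 0, 0 and 0 in sham. Proximal and distal genes therefore had positive medians together, and enterocyte markers, 5 of which are also in the proximal list, had a median of 1.56 with 10 of 10 positive. Of these, 3 had an unadjusted p under 0.05 in edgeR and 1 was called by DESeq2, Anpep, a brush border aminopeptidase, with a log2 fold change of 2.45 in edgeR (DESeq2 adjusted p = 0.0395, edgeR adjusted p = 0.812). Markers of secretory cells also had mostly positive values, with a median of 1.47 and 11 of 11 positive for goblet and Paneth cells and a median of 1.13 and 10 of 12 positive for enteroendocrine cells, none called by edgeR or DESeq2. Of these lists, 9 of 11 and 7 of 14 genes are in the study's printed leading edges. As 8 of the 10 enterocyte markers are also in the study's printed leading edges, their direction is not independent evidence either.

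**Figure D5:**
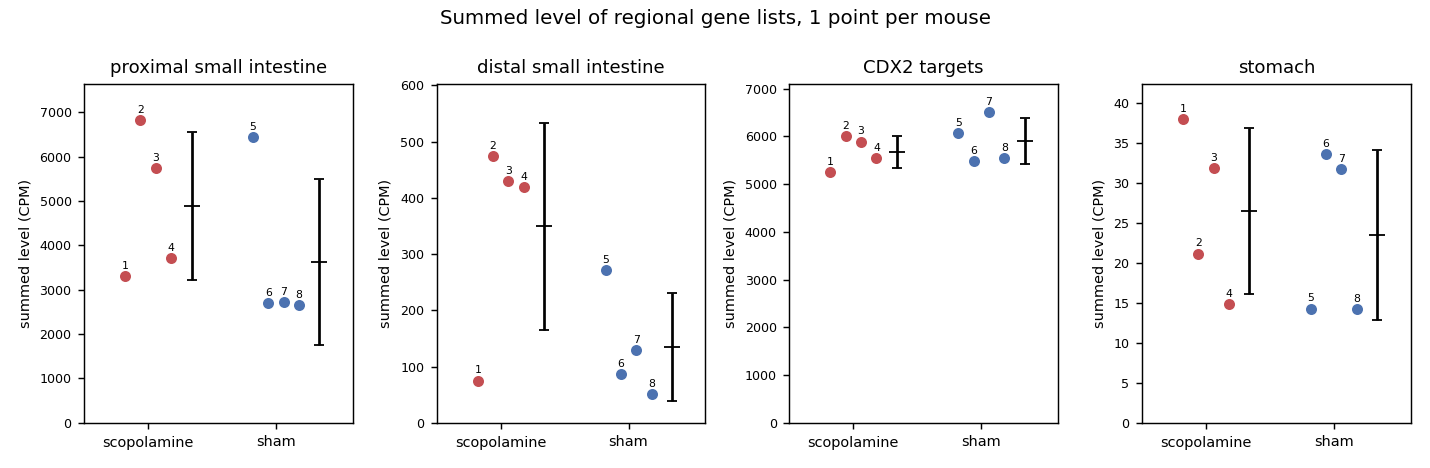
Summed level in CPM (vertical axes, linear, from 0) of the genes of each list in every library, 1 numbered point per mouse, with the group mean and SD as a black bar. The proximal sum was high in sham replicate 5 (6447 CPM), the distal sum was low in scopolamine replicate 1 (75.3 CPM), and CDX2 targets lay between 5259 and 6516 CPM in all libraries.

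The CDX2 targets, 8 in number, were all past the filter, with 5 positive and 3 negative log2 fold changes and a median of 0.42. The most abundant, Lgals4 (galectin 4), had 3940 ± 166 CPM with scopolamine and 4395 ± 359 CPM in sham (SD, n = 4 each), and Vil1, the villin of the microvillus core, had 883 ± 77.5 and 917 ± 114 CPM. Cdh17, the liver-intestine cadherin, had 430 ± 94.7 and 246 ± 68.3 CPM, a log2 fold change of 0.80 ± 0.22 (SE, edgeR adjusted p = 0.812 and 0.0973 in DESeq2). It was the one target called by DESeq2, which called 1.35% of all genes, and none was called by edgeR. Of the 8 targets, 3 are in the study's printed leading edges, so their direction is not independent evidence. Isx, an intestine-specific homeobox gene, had a log2 fold change of 2.16 ± 0.91 (SE, edgeR adjusted p = 0.812). Of 7 genes of the colon, 4 had no count and 1 passed the filter, without an adjusted p under 0.1 in edgeR or DESeq2.

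Of 22 other transcription factors of gut epithelium, 16 passed the filter, 10 with a positive and 6 with a negative log2 fold change and a median of 0.16. None had an adjusted p under 0.1 in edgeR or DESeq2, and 2 had an unadjusted p under 0.05 in edgeR, against 5.99% of all genes, both with a positive value. These were Isx and Hnf4g, a nuclear receptor of enterocytes, at 47.9 CPM with scopolamine and 21.8 CPM in sham (log2 fold change 1.14 ± 0.40, SE, edgeR adjusted p = 0.812). The most abundant were Sox9, of crypts and tuft cells, at 586 ± 154 CPM with scopolamine and 729 ± 44.8 CPM in sham, Elf3 at 633 ± 23.2 and 583 ± 42.0 CPM, and Klf5 at 467 ± 25.3 and 444 ± 42.6 CPM (SD, n = 4 each). Zfpm2, which encodes a GATA cofactor, and Barx1, the factor of stomach mesenchyme, had 0 counts in every library, while Zfpm1 had 22.1 ± 9.41 and 19.3 ± 7.18 CPM (SD, n = 4 each).

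Paralogs of the 9 factors were at or near 0. Of 12, 4 had no count (Onecut1, Gsx1, Gsx2 and Sox3), and only Gata3 passed the filter, at 0.536 CPM with scopolamine and 0.458 CPM in sham. The highest mean was that of Onecut3, with 8, 20, 3 and 29 counts with scopolamine and 21, 10, 0 and 6 in sham. Sox1 came after Gata3, with at most 15 counts in any library. Of 39 Hox genes, which pattern the axis of the body and the gut, 25 had a count and 9 passed the filter, 2 with a positive and 7 with a negative log2 fold change (median -0.23). Hoxa5 was the most abundant at 13.7 CPM with scopolamine and 20.6 CPM in sham, followed by Hoxa3 and Hoxa4, and none had an adjusted p under 0.1 in edgeR or DESeq2. Hoxa13, Hoxb13 and Hoxd13 of the hindgut had at most 1 count in any library.

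Markers of stroma, which the EPC-high gate of the sort would remove, were at a low level in both groups. The 10 stromal and glial markers summed to 13.0 to 19.6 CPM with scopolamine and 16.1 to 17.8 CPM in sham, and the glial genes Sox10 and Gfap had 0 counts. Pancreatic exocrine genes, relevant to Pdx1, had at most 2 counts each, although Ins2 and Ins1 were at 19.2 and 9.87 CPM with scopolamine and 13.7 and 5.67 CPM in sham. The pancreas list had its highest sum in scopolamine replicate 3 (56.5 CPM), where Pdx1 was at 3.32 CPM. The 5 stem cell markers all had negative log2 fold changes (median -0.18), 6 of 7 lymphocyte markers had positive ones (median 0.28), and no marker in any of these lists had an adjusted p under 0.1 in edgeR.

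The genes whose log2 level followed a factor most closely over the 8 libraries, among the 12849 past the filter, are given as a description. Gata4 was followed by Mal2 (Pearson coefficient 0.97), Slc35c1 (0.97) and Odc1 (0.96), Gata5 by Nipa2 (0.94), Cyb5r4 (0.93) and Csnk1d (0.93), and Gata6 by Otp (0.98), Polg (0.94) and Morc3 (0.94). For Cdx1 they included Pskh1 (0.97) and Ccbe1 (0.96), for Cdx2 Lsp1 (0.97), 2010003K11Rik (0.97) and Dync1li2 (0.96), and for Onecut2 Rasd1 (0.97), Tmem248 (0.94) and Otud7b (0.94). No factor was among the closest genes of another. Some of these genes were low in level, with means of 0.781 CPM for Otp, 2.06 CPM for Rasd1 and 2.675 CPM for Lsp1. The points share library depth and input, and no test was made.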

How the data were processed

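RNA sequencing of sorted ZSgreen-positive cells from 4 scopolamine-treated and 4 sham mice was analysed, 1 library per mouse. The authors trimmed adaptors with bcl2fastq 2.20, pseudoaligned reads to the GRCm38 transcriptome with kallisto 0.44.0 and summed them with tximport, and the file they deposited gives estimated counts by gene, not normalized, all of them whole. The annotation release and use of strand are not given in the sources used here. Positions are from GENCODE M21 (GRCm38), which held 34887 of the 35199 symbols.

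Groups follow the treatment label. RNA input and cycles come from the study's Source Data file. Counts were tested with edgeR 4.0.16 (R 4.3.3), by quasi-likelihood with TMM scaling and filterByExpr, and called at a Benjamini-Hochberg adjusted p under 0.1. Factors the filter removed were taken from the same fit on the 21805 genes with a count. Single values were compared by exact permutation over 70 assignments, taking log2 CPM after adding a prior count of 2. CPM use TMM factors, and 3 counts served as the floor. The alternatives tried were limma-voom (limma 3.58.1), DESeq2 1.42.0, other scalings and filters, a threshold of 0.05, amplification cycles or mouse ID letter as a covariate, thinning with edgeR, and leaving out the 200 pg libraries or each replicate. Added with the counts known were gene length, the ratios and their alternatives, DESeq2 on the whole table, and leaving out scopolamine replicate 4 with the 200 pg libraries. The members and lists were chosen with earlier results of these data known. All 9 members are named, with the 3 genes of highest mean CPM in each regional and factor list, any gene called, and the 3 genes most alike in pattern for members with at least 10 counts in every library; genes at 0, Gast, Zfpm1, Isx, Hnf4g, Lyz1, Itln1, Nkx6-1, Nkx6-2 and the Hox13 genes were named after their values were seen. Some genes that this rule names are not reported here. No pair of libraries was a duplicate, with a chi-square per degree of freedom of at least 67.6 within groups. The fits were tested on simulated data.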

Additional observations from a re-analysis of the deposited data

Results flagged for a closer look

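Of 15 groups of 4 mice examined (8 factors with a count, leaving out Nkx6-3 in sham, which was at 0), 1 held a mouse whose gap to the others exceeded Dixon's critical value, where chance gives about 1 in 20. Onecut2 in sham replicate 8 was at 18.3 CPM, against 12.8 to 13.4 CPM in the other sham mice, a gap of 0.882 of the range. Without this mouse the log2 fold change of Onecut2 was 0.57, and its adjusted p lay between 0.525 and 0.999 over all alternatives, with the lowest from DESeq2.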

How the results depend on the processing

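The number of genes with an adjusted p under 0.1 was 0 in edgeR (770 at an unadjusted p under 0.05) and 0 with limma-voom, both other scalings, both other filters, an adjusted p under 0.05, the mouse ID letter as a covariate and thinning. It was 28 with DESeq2 on the filtered genes, 193 with DESeq2 on the whole table, 9 without the sham libraries made from 200 pg, 5 with amplification cycles as a covariate, 24 without those libraries and scopolamine replicate 4 together, and 0 to 2 with each replicate left out (1 without scopolamine replicate 4, 2 without sham replicate 5). The number of factors called was 0, and 1 with DESeq2 run without the filter, since the filter removed Nkx6-3. There Nkx6-3 had a fitted log2 fold change of 8.84. With 0 counts in every sham library that number is set by the fit and measures no size, and the floor gives at least 27.2-fold (at least 8.96-fold without scopolamine replicate 4). Gata4, Onecut2, Cdx1 and Cdx2 kept their direction in all 20 alternatives and no call changed. The direction turned without sham replicate 8 for Gata5 (-0.014, to 0.21 without scopolamine replicate 2) and Gata6 (-2.2e-04, to 0.25 without sham replicate 5) and for Pdx1 (-0.35) without scopolamine replicate 4 and both 200 pg libraries. Gata5 and Gata6 were higher than in the main fit without the 200 pg libraries (0.30 and 0.29) and with amplification cycles as a covariate (0.32 and 0.31). The causes were not tested. The log2 ratio of Gata5 over Gata6 differed by 0.012 between the groups and turned to between -0.088 and -0.029 when scopolamine replicate 1, sham replicate 5 (-0.075) or sham replicate 8 was left out, against 0.11 without sham replicate 7. Its level turned to -1.13 with scopolamine and -1.14 in sham with the length of coding transcripts. The difference for Pdx1 over Cdx2 turned from 1.95 to -0.0075 without the 200 pg libraries. For Gata4 over Cdx1 the difference stayed between 0.48 and 1.10 with each replicate left out, with an exact permutation p of 0.0286 without any 1 scopolamine mouse and 0.143 to 0.171 without any 1 sham mouse. With at least 10 counts in every library, Pdx1 and Nkx6-3 were not tested. Labels give the groups different replicate numbers, and no paired analysis was possible because of this.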
